A study of Mus musculus with 4 samples.

Results

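The genes described here are the matrix metalloproteinases (Mmp), the ADAM and ADAMTS proteases, the ADAMTS-like proteins (Adamtsl) and the tissue inhibitors of metalloproteinases (Timp). They were taken by symbol alone, as every gene named Mmp, Timp, Adam, Adamts or Adamtsl followed by a number and an optional letter. That gave 68 genes of 20674 listed in the data: 19 Mmp, 21 Adam, 19 Adamts, 5 Adamtsl and 4 Timp genes. Of these, 57 were listed in all 4 samples.

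These zinc proteases remodel tissue outside the cell. MMPs cut collagens, elastin and other matrix proteins and are made as inactive precursors. ADAMs sit in the cell membrane and release the outer parts of receptors and growth factors, and ADAMTS enzymes are secreted and cut procollagens and the large proteoglycans such as versican. TIMPs bind the active site of these enzymes and block it, and ADAMTS-like proteins resemble ADAMTS enzymes without the protease domain. In the developing lung, where airspaces form between thinning epithelium and mesenchyme, matrix turnover of this kind accompanies branching and septation.

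Single cells of embryonic C57BL/6 mouse lung were sequenced from 4 lungs. At E16.5 (embryonic days after conception), 1 lung carrying αSMA-GFP, Tbx4-Cre and Rosa26-tdTomato was sorted for Tbx4-lineage+, αSMA+ fibroblasts, that is for cells marked by a smooth muscle actin reporter and by descent from cells with Tbx4 promoter activity. At E17.5, live cells of 3 wild-type (WT) lungs were taken without such a gate. All lungs were digested with trypsin, collagenase IV and DNase, and red cells were lysed before sorting. How the 3 E17.5 lungs relate to one another is not stated, so p-values speak only for these 3 lungs. They rest on how class differences varied between these lungs, with a spread moderated over all genes tested.

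After removal of called doublets, 3055 cells of the sort and 7383 cells of the lungs were used, with median totals of 12007 unique transcripts (UMIs) per cell in the sort and 7201 to 8494 in the lungs. Pairs of libraries shared 7 to 13 cell barcodes. Cells were clustered on genes that included none of the 68, and clusters were named from marker lists. A level is the mean over cells of CPM (each cell's UMIs scaled to the same standard total), given as mean ± SD over the 3 lungs. The main lung classes were macrophage or monocyte-like (2028 cells), endothelium (1369), matrix fibroblast-like (1059), alveolar type 2-like (961), alveolar type 1-like (796), contractile-like (467) and pericyte-like (197). A mesenchymal cluster led by Ptn, Agtr2 and Prss35 (217 cells) met no naming rule and is called L10. It carried markers of several lists. Per lung, its adventitial fibroblast markers summed to 813 to 1159 CPM and its pericyte markers to 1289 to 1367 CPM. Smooth muscle markers summed to 3255 to 4886 CPM, and cardiac muscle markers varied from 61.3 to 583 CPM between lungs. Smaller classes were secretory airway-like (106), granulocyte or mast cell-like (86) and MHC class II-bearing-like (65), while 32 mesothelial cells, 1 of them in lung 2, were too few for a class mean. The secretory airway-like class also held 5 to 6 of 6 ciliated cell markers at 10 CPM, summing to 509 to 2171 CPM per lung. In the sort, a cluster of 134 cells led by macrophage genes such as Lyz2 and C1qb (S11) was left unnamed. Its mesenchyme markers summed to 3098 CPM and its matrix fibroblast markers to 1241 CPM, against 352 CPM of macrophage or monocyte markers. Also unnamed were 353 cells (S1) with 14600 CPM of smooth muscle, 3782 CPM of myofibroblast and 560 CPM of cardiac muscle markers. In the sort's contractile-like class these summed to 7058, 2932 and 31.2 CPM. Another unnamed cluster (S4, 238 cells) was led by Agtr2, Cxcl14 and Ptn. As a measure of free RNA, the summed alveolar type 2 markers were 86108 to 107230 CPM in alveolar type 2-like cells and 1693 to 3009 CPM in every class outside the epithelium, so a level that is a small fraction of another class's can be carry-over. Alveolar type 1-like cells held 12533 to 14036 CPM of them. Alveolar type 1 markers summed to 9076 to 11722 CPM in alveolar type 1-like and 1659 to 1943 CPM in alveolar type 2-like cells, so each class carried markers of both types.

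Of the 68 genes, 38 reached 10 CPM in at least 1 lung class, 18 peaked between 1 and 10 CPM, and 12 stayed under 1 CPM in every class. The 38 were highest in a mesenchymal class in 24 cases, an immune class in 6, an epithelial class in 5 and endothelium in 3. Layers with more classes have more places for a peak: mesenchyme was divided into contractile-like, matrix fibroblast-like, pericyte-like and L10, and endothelium was not divided. Highest classes were not counted over all genes, so these counts have no background share. All 11 Adamts genes among the 38 were highest in mesenchyme, as were 3 of 5 Adamtsl, 3 of 4 Timp and 4 of 9 Adam genes. The 9 Mmp genes divided into 3 mesenchymal, 4 immune, 1 epithelial and 1 endothelial. For 33 of the 38 the same class was highest in every lung, and for 7 it was at least 5-fold above the next class. Timp2, Timp3, Adam10, Adam17 and Adamts1 reached 10 CPM in all 11 classes. UMIs were counted per gene without regard to length or capture, so CPM is compared here between classes for 1 gene and not between genes.

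**Figure D1:**
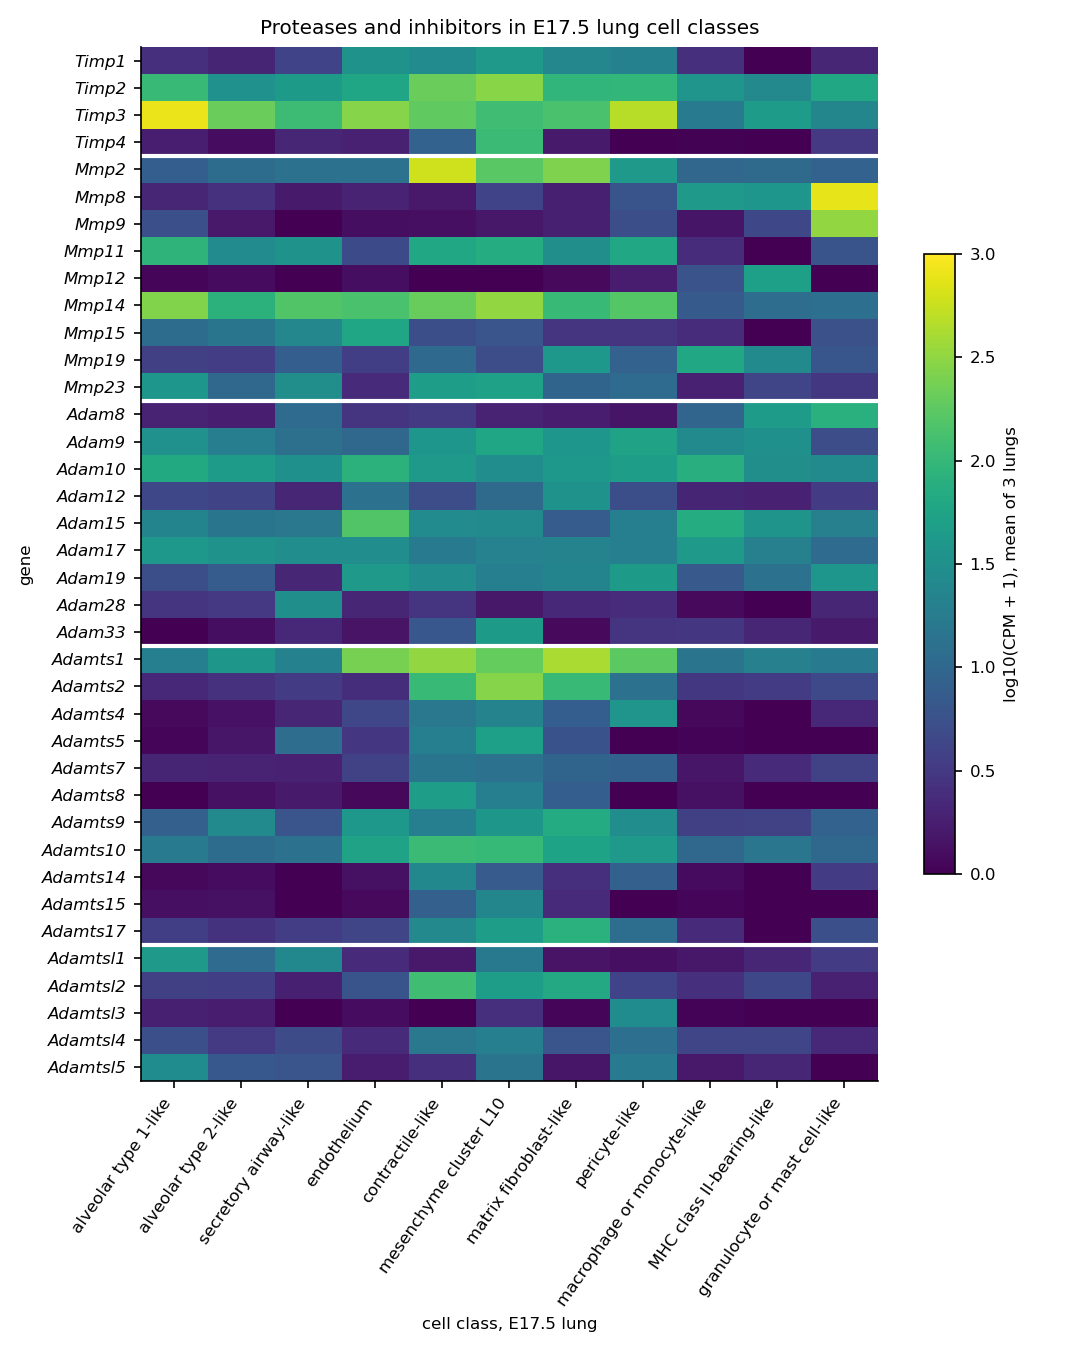
Mean level of the 38 genes that reached 10 CPM in a lung class (rows) across the 11 lung classes (columns), as a colour scale of log10(CPM + 1) of the mean over 3 lungs. The Adamts genes are brightest in the mesenchymal columns, and Mmp8 and Mmp9 stand out in the granulocyte or mast cell-like column at 769 and 328 CPM.

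Among the inhibitors, Timp3, which binds to the matrix and also blocks Adam17 and the aggrecan-cutting ADAMTS enzymes, was highest in alveolar type 1-like cells, the flat gas-exchange epithelium. Its level there was 721 CPM in lung 1, 839 in lung 2 and 893 in lung 3. Pericyte-like cells, the mural cells of capillaries, held 486, 502 and 441 CPM. Both classes stood above the next, endothelium at 283 ± 26.9 CPM, in every lung without overlap. Below endothelium, alveolar type 2-like cells (205 ± 20.4 CPM) and contractile-like cells (186 ± 21.6 CPM) did not differ beyond their spread. Macrophage or monocyte-like cells had 16.2 ± 4.31 CPM. Timp3 was detected in 92.8% of alveolar type 1-like cells and 11.6% of macrophage or monocyte-like cells, classes whose median depth per lung was 7539 to 8865 and 6801 to 7884 UMIs. After random thinning of all cells to a depth of 1000 UMIs these became 51.8% and 1.07%. Within the alveolar type 1-like class the level was 1441 CPM in cluster L13, 682 CPM in L4 and 44.7 CPM in L23, a cluster of 35 cells.

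Timp2, which inhibits MMPs and also joins Mmp14 at the cell surface in the complex that activates the Mmp2 precursor, had its highest class mean in L10. The lungs gave 317, 268 and 300 CPM there, and 225, 186 and 211 CPM in contractile-like cells, so the classes did not overlap. Alveolar type 1-like (103 ± 15.4 CPM), pericyte-like (96.6 ± 25.5 CPM) and matrix fibroblast-like cells (94.4 ± 13.9 CPM) lay within one another's spread. The 32 mesothelial cells, given only as a description, held 936 CPM in lung 1 and 838 CPM in lung 3.

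Timp4, a further member of the inhibitor family, was highest in L10, with 123, 103 and 99.9 CPM in the 3 lungs. It was detected in 20.4% of L10 cells. The next class, contractile-like, had 3.48, 9.89 and 9.75 CPM, and the gene was 14.1-fold higher in L10. This gap depended on the class limits. With all 4 samples clustered together, contractile-like cells of the lungs had 40.4, 55.4 and 45.9 CPM. Timp1, an inhibitor of most secreted MMPs, was spread over mesenchyme and endothelium instead. It stood at 40.9 ± 6.36 CPM in L10, 33.1 ± 3.32 CPM in endothelium and 27.3 ± 3.49 CPM in contractile-like cells, and at 1.38 ± 0.374 CPM over all epithelial cells.

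Mmp2 (gelatinase A, which cuts denatured collagen and basement membrane collagen) was led by contractile-like cells, the smooth muscle and myofibroblast lineage. Lungs 1 to 3 gave 630, 577 and 599 CPM. Matrix fibroblast-like cells had 246, 252 and 287 CPM, and L10 had 168, 170 and 172 CPM. Pericyte-like cells fell far below these at 32.5, 46.8 and 44.4 CPM, and no pair of these 4 classes overlapped. Mmp2 was found in 93.4% of contractile-like cells and 6.13% of macrophage or monocyte-like cells, or 43.2% and 0.761% after thinning, at median depths per lung of 6204 to 7689 UMIs in the contractile-like class.

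Mmp14, the membrane-bound collagenase that also activates the Mmp2 precursor, had a wider distribution. L10 held 304, 315 and 363 CPM, alveolar type 1-like cells 269, 292 and 251 CPM, and contractile-like cells 196, 171 and 233 CPM. The first of these was above the second in every lung, and both were above contractile-like cells. Every class of epithelium, endothelium and mesenchyme had at least 83.0 CPM, while macrophage or monocyte-like cells had 6.13 ± 1.43 CPM. Mmp15, a related membrane-type MMP, was highest in endothelium at 62.2, 62.9 and 49.4 CPM, above the 23.7 ± 13.2 CPM of secretory airway-like cells. Mmp23, a small membrane-anchored MMP, was 51.7 ± 4.22 CPM in L10 and 46.0 ± 5.45 CPM in contractile-like cells, whose values overlapped.

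Mmp11 (stromelysin 3, which is activated by furin before secretion) was 87.2 ± 8.43 CPM in alveolar type 1-like cells and 71.2 ± 17.0 CPM in L10, with overlap between lungs. Mmp19, a secreted MMP, was measured in unlike classes: macrophage or monocyte-like cells had 52.9, 67.0 and 63.0 CPM and matrix fibroblast-like cells had 37.2, 39.1 and 38.4 CPM. Every other mesenchymal class had under 10 CPM.

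The MMPs named after leukocytes were measured in leukocytes. Mmp8, the neutrophil collagenase, gave 851, 745 and 713 CPM in granulocyte or mast cell-like cells, against 37.3, 44.5 and 37.5 CPM in macrophage or monocyte-like cells. The class held 2 clusters, and Mmp8 was 1442 CPM in L21, led by neutrophil genes such as Ngp and S100a9, and 0 CPM in L22, led by mast cell and basophil genes such as Cma1 and Mcpt8. Mmp9 (gelatinase B) followed the same division, with 590 CPM in L21 and 29.5 CPM in L22. In the whole class it had 395, 314 and 275 CPM, and no other class mean exceeded 4.35 CPM. Mmp12, the macrophage elastase, was highest in the MHC class II-bearing-like cells, which include antigen-presenting cells, at 56.7, 68.0 and 18.4 CPM. Those 3 values came from 21 to 23 cells each and spread widely, yet all lay above the 4.90 ± 2.91 CPM of macrophage or monocyte-like cells.

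Mmp8 and Mmp12 belong to a run of neighbouring Mmp genes on mouse chromosome 9. The run held 10 Mmp genes in RefSeq, 7 of which were listed in these data. The other 5 had low means in every class, of which the highest were 1.5 CPM for Mmp27, 1.27 CPM for Mmp13, 0.740 CPM for Mmp3, 0.163 CPM for Mmp7 and 0.110 CPM for Mmp1a. Within the macrophage or monocyte-like class Mmp13 reached 15.1 CPM in cluster L11, where 15 of its 17 UMIs came from 4 cells of lung 3. The last 100 bases before an annotated start of Mmp8 and Mmp12, the members of the run that reached 10 CPM in a class, are shown. Beside them are those of 4 neighbours with low class means. Sequences are from RefSeq (GRCm38.p6, plus strand, 5′ to 3′), with the AP-1 motif TGANTCA in capitals. AP-1 is the Fos and Jun dimer, and the motif reads alike on both strands.
Mmp8, chr9:7558329-7558428: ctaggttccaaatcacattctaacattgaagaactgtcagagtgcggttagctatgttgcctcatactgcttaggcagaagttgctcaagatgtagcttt
Mmp12, chr9:7347274-7347373: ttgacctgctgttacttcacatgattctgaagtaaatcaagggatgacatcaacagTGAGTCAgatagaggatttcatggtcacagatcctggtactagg
Mmp13, chr9:7272414-7272513: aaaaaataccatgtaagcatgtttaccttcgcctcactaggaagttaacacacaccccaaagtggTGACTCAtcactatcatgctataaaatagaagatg
Mmp3, chr9:7445722-7445821: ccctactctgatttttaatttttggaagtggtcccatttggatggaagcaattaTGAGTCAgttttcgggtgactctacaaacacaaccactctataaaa
Mmp1a, chr9:7464041-7464140: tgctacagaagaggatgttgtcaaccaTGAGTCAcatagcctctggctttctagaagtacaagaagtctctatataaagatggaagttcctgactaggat
Mmp7, chr9:7691990-7692089: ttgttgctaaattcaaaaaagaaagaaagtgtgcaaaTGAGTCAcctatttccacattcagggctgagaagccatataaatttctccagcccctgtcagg

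Of the 7 listed genes of the run, 5 had the motif in the 250 bases before a start, and Mmp8 and Mmp27 had no match there. Mmp12 and Mmp7 each have another annotated start, whose last 100 bases hold no match. For both, the window printed is the one with a match, and Mmp27 is not printed. Over all 47 promoters of the 42 family members with an entry, 12.8% held the motif, against 6.75% of 32851 mouse promoters, and the only holder outside chromosome 9 was Adam19. The GC box GGGCGG, searched on both strands, was in 51.1% of the members' promoters and 32.7% of all promoters, and the TATA box TATAAA, also searched on both, in 12.8% and 12.4%. A match describes the letters in this window and is not a bound site.

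**Figure D2:**
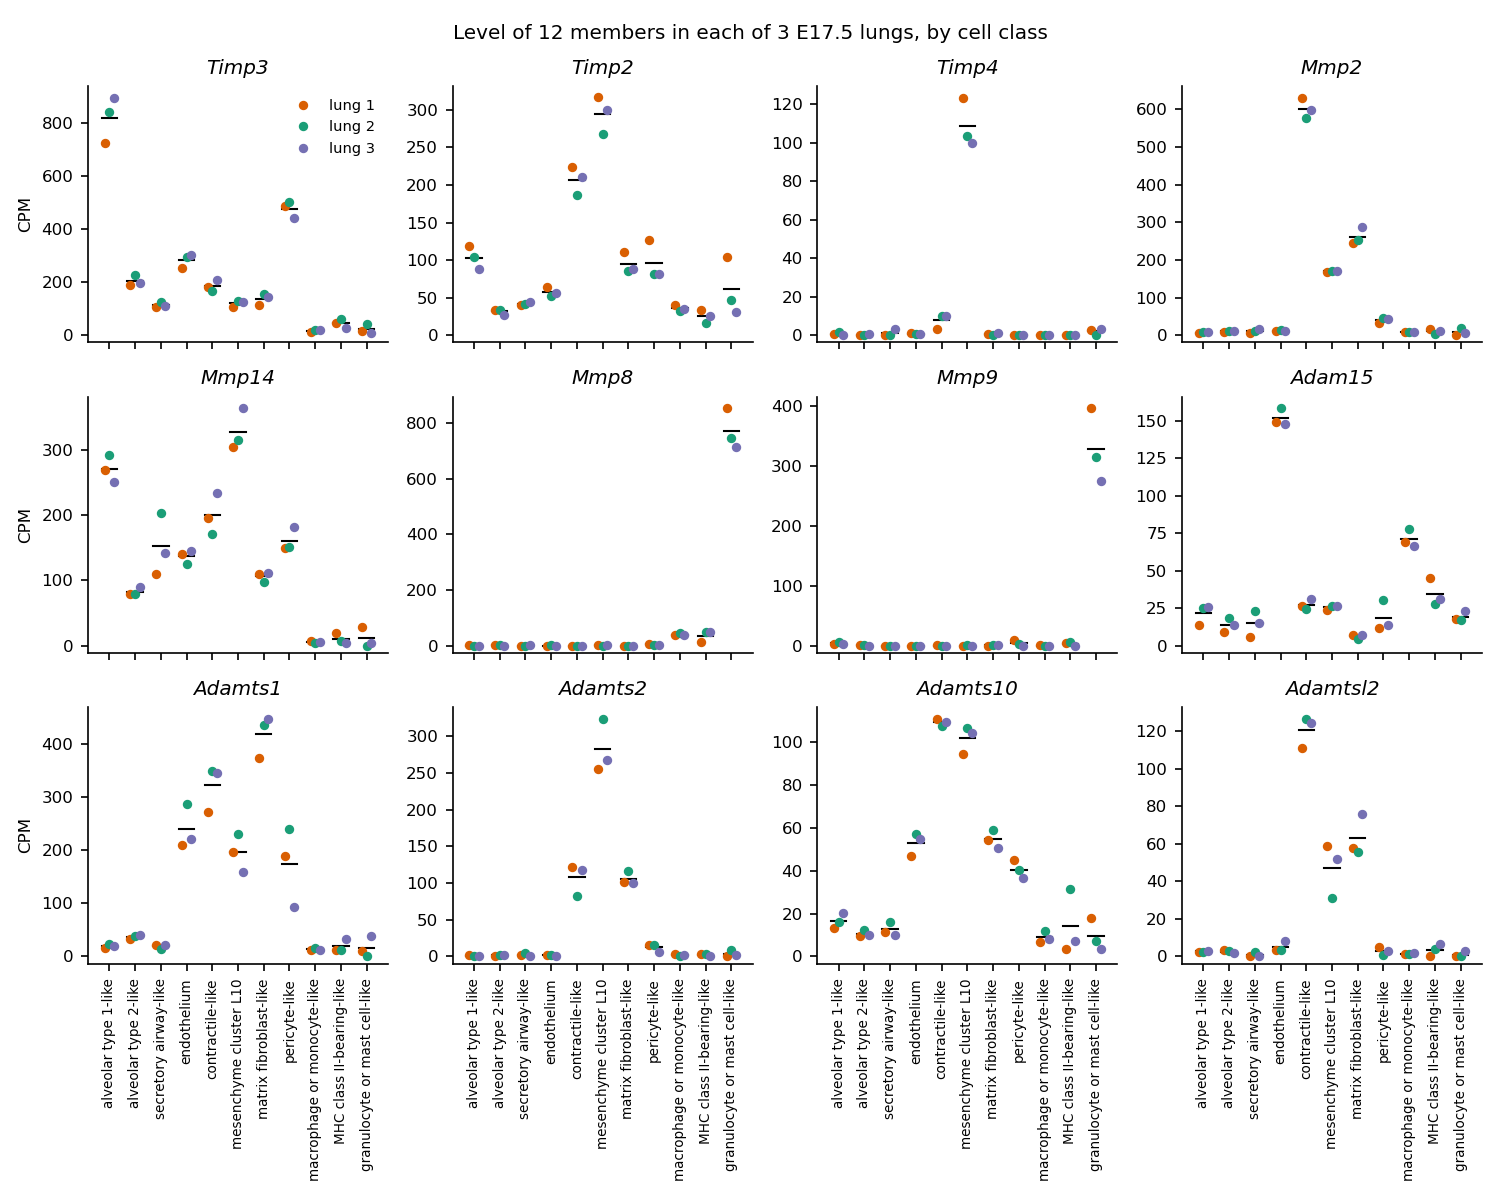
Level in CPM of 12 genes in each lung class, with 1 dot per E17.5 lung and a bar at their mean. Lungs lie close together relative to the distance between classes for Timp3, Mmp2, Mmp8 and Adam15, whereas the lungs spread more for Adamts1 in pericyte-like cells, from 94.0 to 240 CPM.

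Adam10 and Adam17 are the main membrane sheddases: Adam10 cuts Notch receptors and cadherins, and Adam17 releases tumour necrosis factor and ligands of the EGF receptor. Both were measured in every class. Adam10 ranged from 82.7 ± 2.92 CPM in endothelium and 77.4 ± 5.60 CPM in macrophage or monocyte-like cells, which overlapped, to 26.4 ± 18.3 CPM in granulocyte or mast cell-like cells. Adam17 ranged from 41.3 ± 3.5 CPM in macrophage or monocyte-like cells, overlapping with 38.6 ± 4.36 CPM in alveolar type 1-like cells, to 10.1 ± 11 CPM in granulocyte or mast cell-like cells.

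Adam15, an ADAM whose disintegrin domain binds integrins, was highest in endothelium at 149, 158 and 148 CPM. Macrophage or monocyte-like cells followed at 69.5, 78.2 and 66.7 CPM, and matrix fibroblast-like cells were lowest at 6.42 ± 1.59 CPM. Adam15 was found in 56.5% of endothelial cells and 5.01% of matrix fibroblast-like cells, or 14.5% and 0.835% after thinning, at median depths per lung from 6205 UMIs in endothelium to 8535 UMIs in matrix fibroblast-like cells. Adam8, a leukocyte ADAM, had 77.7, 102 and 57.1 CPM in granulocyte or mast cell-like cells and 44.2 ± 10.1 CPM in MHC class II-bearing-like cells. Adam28 was 30.1 ± 11.4 CPM in secretory airway-like cells and 14.3-fold lower in alveolar type 2-like cells. Adam33, whose human counterpart has been linked to asthma, gave 39.9, 23.3 and 64.2 CPM in L10 and 7.58-fold less in contractile-like cells. Adam12 was highest in matrix fibroblast-like cells (33.8 ± 2.55 CPM), while Adam19 in pericyte-like cells (42.7 ± 4.25 CPM) and endothelium (41.3 ± 3.04 CPM) did not differ beyond the spread.

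Among the ADAMTS enzymes, Adamts1, which cuts versican and aggrecan, was highest in matrix fibroblast-like cells. These had 373, 436 and 447 CPM, and contractile-like cells had 272, 348 and 345 CPM. Within each lung the first class was higher, and its lowest lung stood above the highest contractile lung. Endothelium had 239 ± 41.8 CPM and L10 had 196 ± 35.9 CPM, while alveolar type 1-like cells had 18.9 ± 3.79 CPM. It was detected in 84.7% of matrix fibroblast-like cells and 9.15% of macrophage or monocyte-like cells, or 32.9% and 0.945% after thinning. The related Adamts9 was 68.8 ± 15.3 CPM in matrix fibroblast-like cells, and the aggrecanases Adamts4 and Adamts5 were highest in pericyte-like cells (35.7 ± 6.61 CPM) and L10 (48.1 ± 11.3 CPM).

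The procollagen N-proteinases Adamts2 and Adamts14, which trim fibrillar procollagens before fibrils form, were mesenchymal. Adamts2 gave 256, 324 and 268 CPM in L10, and 108 ± 21.8 and 106 ± 9.46 CPM in contractile-like and matrix fibroblast-like cells, which did not differ beyond their spread. Pericyte-like cells had 12.3 ± 5.72 CPM. Adamts14 was 24.1 ± 1.21 CPM in contractile-like cells and at most 7.22 CPM in other classes. Adamts10 and Adamts17, both tied to fibrillin microfibrils, had different leading classes. Adamts10 reached 111, 107 and 109 CPM in contractile-like cells and 102 ± 6.47 CPM in L10, and Adamts17 reached 71.9, 78.0 and 92.4 CPM in matrix fibroblast-like cells. Adamts8 was measured in contractile-like cells at 37.5, 52.1 and 53.0 CPM and in L10 at 18.7 ± 2.13 CPM, and had 0 UMIs in lung pericyte-like cells.

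Of the ADAMTS-like proteins, Adamtsl2, which binds fibrillin and the latent TGF-beta binding protein, was 111, 126 and 124 CPM in contractile-like cells. Matrix fibroblast-like cells had 57.7, 55.6 and 76.1 CPM and pericyte-like cells 2.96 ± 2.12 CPM, so these classes were apart in every lung. Adamtsl1 (40.0 ± 1.76 CPM) and Adamtsl5 (27.4 ± 4.55 CPM) had their highest class means in alveolar type 1-like cells. For Adamtsl5 the classes overlapped, and in lung 2 L10 was higher, at 25.6 against 23.7 CPM. Adamtsl3 was measured in pericyte-like cells at 18.8, 44.6 and 20.5 CPM, 17.4-fold above L10, and Adamtsl4 was 18.5 ± 6.21 CPM in L10, overlapping with 15.1 ± 2.73 CPM in contractile-like cells.

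Which broad tissue layer held more of each gene was tested by comparing epithelium, endothelium, mesenchyme and immune cells, each against the mean of the other 3. The test was limma on log2(CPM + 10), blocked by lung, and a gene was called at a Benjamini-Hochberg adjusted p under 0.05 over 4146 genes. Of the 68 members, 21 passed the filter of a mean of 10 CPM. A gene can pass it only because of the layer where it is high, and its higher call there was then in part set by the filter. With under 10 CPM over the other layers, this held for Mmp2, Mmp23, Adamts2, Adamtsl2 and Adamts17 in mesenchyme. It also held for Mmp15 and Timp1 in endothelium, Mmp8 and Mmp19 in immune cells, and Mmp23 in epithelium. The counts and medians below include these genes. Differences below are log2 of (CPM + 10) ± SE, and understate the change of low genes. Because they average logs over classes, they can differ in sign from a comparison of mean CPM.

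In mesenchyme, all 21 members were called, 16 higher and 5 lower, beside 76.0% of all genes tested, 41.9% higher and 34.1% lower. The members' median difference was 1.04, against 0.06 over all genes. Mmp2 rose most, from 9.99 ± 1.33 CPM over the other layers to 310 ± 20.9 CPM (4.01 ± 0.07, adjusted p = 2.71e-26), followed by Adamts2 (3.45 ± 0.07), Adamtsl2 (2.60 ± 0.08), Adamts1 (2.55 ± 0.06) and Adamts17 (2.43 ± 0.07). Adamts10 (1.43), Mmp11 and Timp2 (both 1.34), Adamts9 (1.19), Mmp14 (1.17), Mmp23 (1.04) and Timp1 (1.02) were also called higher. Timp3 was called higher at 0.31 ± 0.05 although its mean of 182 CPM in mesenchyme was below the 254 CPM of the other layers. Adam15 fell by 1.48, Mmp15 fell by 1.03, Adam10 fell by 0.68 and Adam17 fell by 0.59.

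Epithelium had 18 called, 5 higher and 13 lower, beside 75.9% of all genes, 27.4% higher and 48.5% lower, with a member median of -0.82 against -0.12. Timp3 rose from 161 ± 15.4 to 461 ± 41.0 CPM (2.03 ± 0.05, adjusted p = 1.10e-23). Mmp11 (1.62 ± 0.07), Mmp14 (1.26 ± 0.06) and Mmp23 (1.01 ± 0.07) rose as well, and Adamts1 (-1.73), Mmp2 (-1.42), Adam15 (-1.34), Mmp19 (-1.27), Timp1 (-1.19), Adamts2 (-1.18) and Adam19 (-1.05) fell. Adam17 (0.24 ± 0.07) was no longer called without lung 2 (adjusted p = 0.0502), nor was Adam10 (-0.23 ± 0.06) without lung 1 (adjusted p = 0.0837). Adamts9 was called lower by limma (-0.30 ± 0.08), while edgeR gave 0.22 with an adjusted p of 0.101.

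Endothelium had 20 called, 10 higher and 10 lower, beside 79.6% of all genes, 51.7% higher and 27.9% lower. Mmp15 rose from 5.76 ± 1.22 to 58.2 ± 7.62 CPM (2.18 ± 0.08, adjusted p = 6.30e-20), and Adam15 (2.11 ± 0.07), Adamts1 (1.85 ± 0.06), Timp1 (1.36 ± 0.07), Adam19 (1.3 ± 0.07) and Timp3 (1.12 ± 0.05) rose. Among those lower were Mmp11 (-1.31), Mmp19 (-1.30), Adamts2 (-1.19), Mmp2 (-1.13), Adam9 (-1.01) and Mmp23 (-1.0). Immune cells had 20 called, 5 higher and 15 lower, beside 86.3% of all genes, 28.5% higher and 57.9% lower. Those higher were Mmp8 (2.80 ± 0.06), Mmp19 (1.93 ± 0.07), Adam15 (0.71 ± 0.07), Adam17 (0.41 ± 0.07) and Adam10 (0.36 ± 0.06). Timp3 fell from 309 ± 27.6 to 17.4 ± 4.6 CPM (-3.46 ± 0.05), and Mmp14 (-3.32), Adamts1 (-2.67), Adamts9 (-1.74), Mmp11 (-1.65), Mmp2 (-1.46), Adamts10 (-1.36), Mmp15 (-1.24), Timp1 (-1.18), Adamtsl2 (-1.08), Adamts2 (-1.08) and Mmp23 (-1.05) fell.

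Scaling by median of ratios in place of CPM moved the median of all genes by -0.22 in endothelium, -0.13 in mesenchyme and 0.29 in immune cells. It moved the share of all calls that were higher from 65.0% to 43.0% in endothelium, from 55.1% to 41.8% in mesenchyme and from 33.0% to 51.5% in immune cells, and with edgeR it was 47.8% in epithelium (from 36.2%), 48.0% in endothelium and 48.2% in immune cells. Under median-of-ratios scaling the members stood at 10 higher and 11 lower in endothelium, 16 and 5 in mesenchyme, and 6 and 15 in immune cells. With edgeR, which tested 24 members, they stood at 8 and 13 in epithelium, 11 and 13 in endothelium, and 6 and 18 in immune cells.

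Within mesenchyme, contractile-like, matrix fibroblast-like and pericyte-like cells were each compared with the mean of the other 2 over 3968 genes, 24 of them members. In contractile-like cells 16 were called, 12 higher and 4 lower, beside 38.8% of all genes, 22.6% higher and 16.2% lower. Mmp2 rose most, to 602 ± 26.9 CPM from 152 ± 13.4 CPM (2.38 ± 0.09, adjusted p = 9.16e-15). Adamts8 (2.14 ± 0.16), Adamtsl2 (2.10 ± 0.14), Mmp23 (1.60 ± 0.20), Adamts14 (1.31 ± 0.19), Adamts2 (1.21 ± 0.15), Adamts10 (1.06 ± 0.11) and Timp2 (1.06 ± 0.10) rose with it. Adamts8, Mmp23, Adamts14 and Adamtsl4 had under 10 CPM over the other 2 classes and passed the filter only with contractile-like cells counted. Their higher calls, which are among the 12, were in part set by the filter. Mmp14 was higher by 0.57 ± 0.09. Adamts9 fell by 0.93, Adam12 fell by 0.86 and Timp3 fell by 0.45. Mmp11 (0.42) lost its call without lung 1 (adjusted p = 0.0683) or lung 3 (0.126), Adamtsl4 (0.49) without lung 3 (0.0881) and Mmp19 (-0.61) without lung 1 (0.178).

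Matrix fibroblast-like cells had 19 called, 8 higher and 11 lower, beside 33.7% of all genes, 12.2% higher and 21.5% lower. Of all calls 36.1% were higher, which became 50.3% under median-of-ratios scaling and 52.0% with edgeR, with the members at 8 and 11 in both. Adamts17 rose to 80.7 ± 10.5 CPM from 18 ± 1.04 CPM (1.75 ± 0.16, adjusted p = 1.43e-08). Adam12 (1.64 ± 0.17), Mmp19 (1.39 ± 0.18), Adamts9 (1.25 ± 0.17) and Adamts2 (1.20 ± 0.15) rose, and Adamts1 was higher by 0.84 ± 0.15. Adam12 and Mmp19 passed the filter only with matrix fibroblast-like cells counted, so their higher calls were in part set by it. Mmp2 was called higher at 0.62 ± 0.09 with a mean of 262 CPM against 321 CPM in the other classes, because the fit averages contractile-like and pericyte-like cells on the log scale and 321 CPM is their arithmetic mean. Timp3 (-1.07 ± 0.09) and Adamts14 (-1.02 ± 0.19) fell most. The call on Adamts8 (-0.51) was lost without lung 1 (0.0894) or lung 2 (0.111), while edgeR put it at 1.75 with an adjusted p of 0.180 and a pseudocount of 1 CPM at 0.13 (0.821). Also lost were those on Adam19 (-0.52) and Adamtsl4 (-0.60) without lung 2 (0.0936 and 0.0760). Of the class's clusters, the cycling cluster L15 had 213 CPM of Adamts1 against 439 CPM in L0, 28.8 against 86.4 CPM of Adamts17, and 320 against 254 CPM of Mmp2.

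In pericyte-like cells 16 were called, 5 higher and 11 lower, beside 41.3% of all genes, 20.8% higher and 20.5% lower. Timp3 rose to 476 ± 31.9 CPM from 162 ± 13.7 CPM (1.52 ± 0.09, adjusted p = 1.47e-11) and Adamts4 to 35.7 ± 6.61 CPM from 10.8 ± 0.951 CPM (1.15 ± 0.15), while Adam19 was higher by 0.59 ± 0.14. Mmp2 (-3.00 ± 0.09), Adamtsl2 (-2.92 ± 0.14), Adamts2 (-2.42 ± 0.15), Adamts8 (-1.63 ± 0.16), Adamts17 (-1.42 ± 0.16) and Adamts1 (-1.12 ± 0.15) fell. Timp1, Adamts14, Adam10, Adam17 and Mmp14 were among the 8 members that did not pass. Mmp11 (0.43) and Adam9 (0.39) lost their calls without lung 1 (0.0680 and 0.0988), Adam9 also without lung 2 (0.222), and Mmp23 (-0.76) without lung 1 (0.0948) or lung 3 (0.0523).

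**Figure D3:**
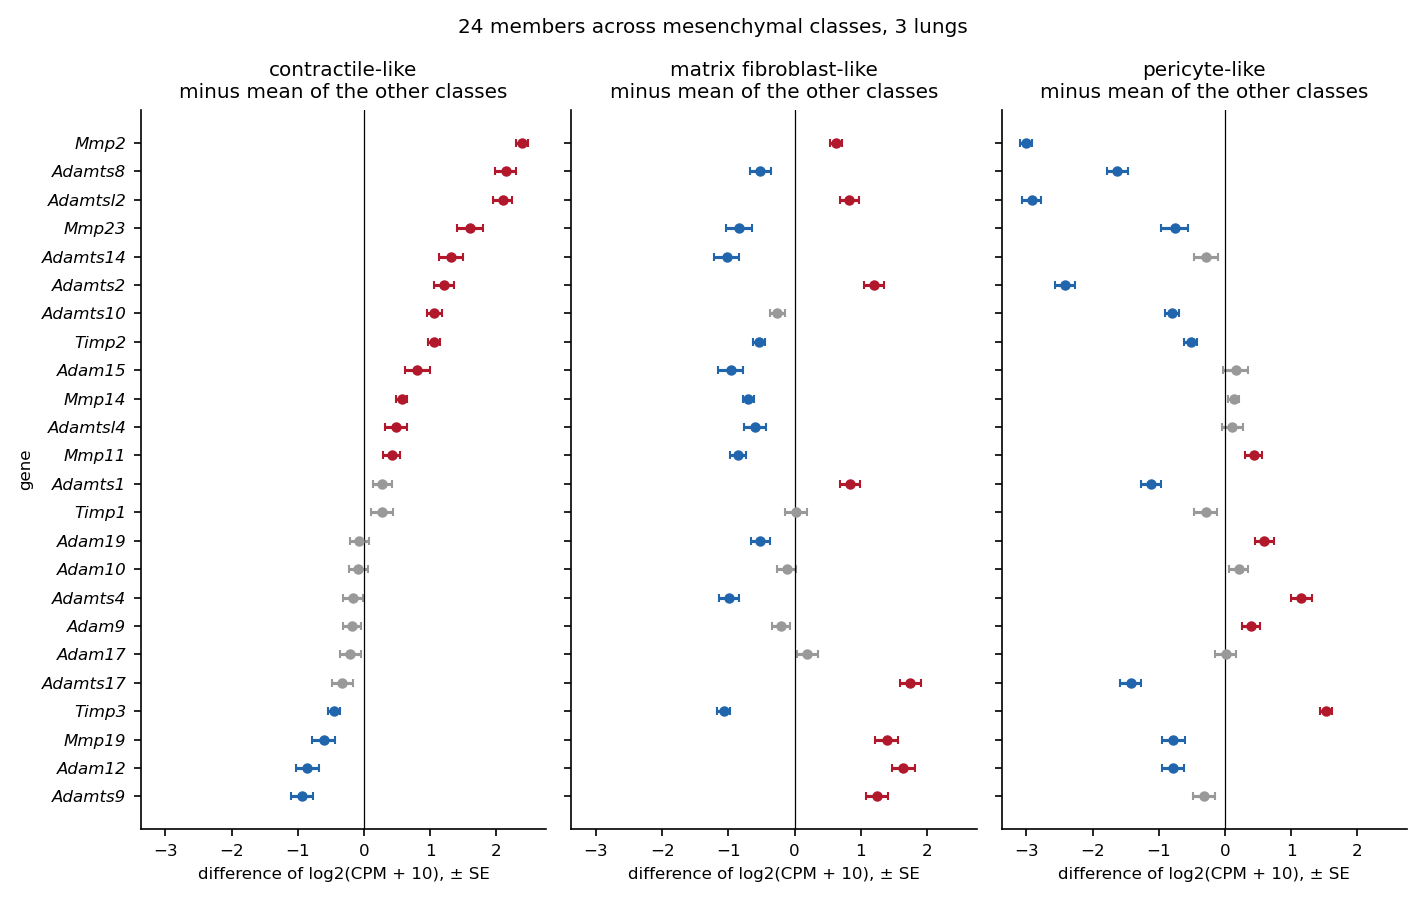
Difference in log2(CPM + 10) for 24 genes in contractile-like, matrix fibroblast-like and pericyte-like cells, each against the mean of the other 2 classes, with bars of 1 SE from limma, red points for genes called higher, blue for lower and grey for neither. Mmp2 lies at 2.38 in contractile-like and -3.00 in pericyte-like cells, and Timp3 at 1.52 in pericyte-like and -1.07 in matrix fibroblast-like cells.

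Immediate early and stress genes, which respond to cell handling, moved with these mesenchymal comparisons. Of 19 list genes tested, 11 were higher and 1 lower in contractile-like cells, 12 and 3 in matrix fibroblast-like cells, and 1 and 17 in pericyte-like cells. Atf3 was higher by 1.71 ± 0.10 in contractile-like cells and Klf4 lower by 1.28 in pericyte-like cells. Between layers, 16 of the 19 were higher in mesenchyme and none lower, led by Btg2 (1.85 ± 0.04), while 15 were lower and 2 higher in epithelium, 13 lower and 4 higher in endothelium, and 8 lower and 9 higher in immune cells. Alveolar type 1-like cells had 9 higher and 4 lower than alveolar type 2-like cells. Their part in the results on Adamts1 and the other members was not tested.

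Alveolar type 1-like cells were compared with alveolar type 2-like cells, the surfactant-making epithelium, over 3675 genes. Of 15 members tested, 13 were called, 11 higher and 2 lower in alveolar type 1-like cells, beside 38.4% of all genes, 22.3% higher and 16.1% lower, with a member median of 0.56 against 0.03. Timp3 rose from 205 ± 20.4 to 818 ± 87.7 CPM (1.94 ± 0.06, adjusted p = 7.81e-12) and Mmp14 from 83.0 ± 6.62 to 271 ± 20.8 CPM (1.59 ± 0.08). Timp2 (1.43 ± 0.09), Mmp11 (1.42 ± 0.10), Adamtsl1 (1.32 ± 0.12), Mmp23 (1.31 ± 0.12) and Adamtsl5 (1.25 ± 0.12) rose. Timp2, for example, was 118, 104 and 87.5 CPM in alveolar type 1-like cells and 34.1, 34.2 and 27.5 CPM in alveolar type 2-like cells, without overlap. Adamts9 fell by 1.08 and Adamts1 fell by 0.73, while Adam17 (0.17 ± 0.10) and Mmp15 (-0.21 ± 0.11) did not pass. Mmp23 and Adamtsl5 reached the filter only through alveolar type 1-like cells, and Adamts9 only through alveolar type 2-like cells. The direction of these calls was in part set by the filter. Adam10 (0.55) lost its call without lung 1 (0.0694), Adam15 (0.41) without lung 3 (0.105) or without the lung as a block (0.0857), and Adamts10 (0.36) without lung 1 (0.0555) or lung 3 (0.226).

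**Figure D4:**
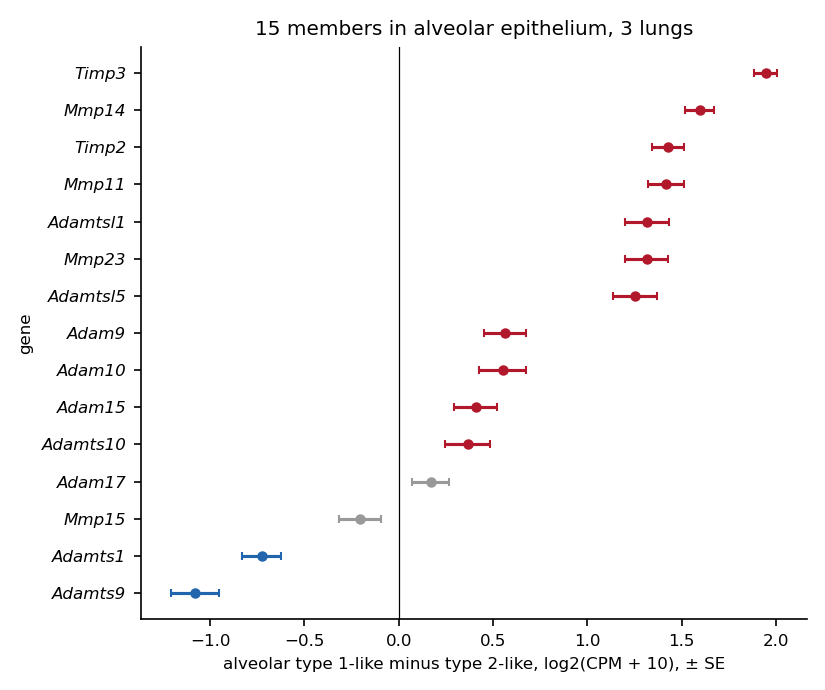
Difference in log2(CPM + 10) between alveolar type 1-like and alveolar type 2-like cells for 15 genes, with bars of 1 SE from limma, red points for genes called higher, blue for lower and grey for neither. The 11 genes called higher run from Adamts10 at 0.36 to Timp3 at 1.94, and Adamts1 and Adamts9 lie below 0.

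Genes that act on or beside these proteases moved in the same comparisons, and are described from lists. Regulators of MMPs and ADAMs include Reck, a membrane inhibitor of MMPs, the convertases Furin and Pcsk5, which cut precursors, and the tetraspanins and Frmd8, which traffic Adam10 and Adam17. Of 12 tested within mesenchyme, 4 were higher and 1 lower in contractile-like cells, with Pcsk5 at 208 against 15 CPM (3.22 ± 0.13) and Reck at 87.9 against 31.3 CPM (1.29 ± 0.14). Pericyte-like cells had 3 higher and 4 lower, with Tspan17 (1.99 ± 0.15) and Frmd8 (1.63 ± 0.15) higher, and matrix fibroblast-like cells 1 higher, Rhbdf2 (1.03 ± 0.20), and 5 lower. Of 11 tested between layers, epithelium had 3 higher and 5 lower, led by Tspan15 (3.04 ± 0.07) and Bsg (2.18 ± 0.03), an inducer of MMPs. Endothelium had 6 and 5, led by Pcsk5 (2.06 ± 0.07), mesenchyme 5 and 5, led among the higher by Reck (1.86 ± 0.07), and immune cells 2 and 9, with Furin at 1.66 ± 0.06. In alveolar type 1-like cells 5 of 10 were higher and 1 lower, led by Spock2 (2.18 ± 0.12), a matrix proteoglycan, and Tspan15 (1.64 ± 0.06).

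Of other extracellular proteases and inhibitors, 5 of 7 were higher and 1 lower in contractile-like cells. The serine protease Htra1 stood at 781 CPM against 17.9 CPM (4.89 ± 0.11), and the serine protease inhibitor Serpine2 (1.59 ± 0.07) rose too. Matrix fibroblast-like cells had 1 higher, Htra3 (1.91 ± 0.16), and 4 lower, and pericyte-like cells 1 higher, the plasminogen activator Plat (2.42 ± 0.15), and 5 lower. Between layers the 9 tested gave 6 higher and 3 lower in mesenchyme, 4 and 4 in endothelium, led by Ece1 (2.55 ± 0.07), 3 and 5 in epithelium, led among the higher by Dpp4 (1.73 ± 0.06), and 2 and 6 in immune cells, where Plaur, the urokinase receptor, was higher by 2.81 ± 0.06. In alveolar type 1-like cells 2 of 6 were higher, led by Htra1 (1.16 ± 0.10), and 2 lower. Among the substrates, 3 were tested between layers: Fbn1 (3.02 ± 0.07), Vcan (2.37 ± 0.07) and Fbn2 (0.64 ± 0.07) were all higher in mesenchyme, Fbn2 was higher and the other 2 lower in epithelium, and 2 were lower in endothelium and in immune cells. Vcan, the versican cut by Adamts1 and Adamts9, was higher in matrix fibroblast-like cells (1.26 ± 0.12) and contractile-like cells (0.66 ± 0.12) and lower in pericyte-like cells (-1.91 ± 0.12). Fbn2 was higher in alveolar type 1-like than in alveolar type 2-like cells (1.43 ± 0.06).

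The E16.5 sort was set beside the E17.5 lungs within contractile-like, pericyte-like and matrix fibroblast-like cells. Stage, reporter alleles, sort gate and library differ together between them and cannot be told apart, and the sort is 1 lung, so there is no test. A gene counts as apart when the sort lay at least 2-fold beyond the nearest lung. Intervals on the sort are exact 95% Poisson intervals and cover counting error only. The sort's contractile-like class was 1018 cells of 5 clusters named for smooth muscle markers, while that of the lungs was 1 cluster in which myofibroblast and smooth muscle markers scored nearly alike. Cluster S11, which carried mesenchyme markers and was led by macrophage genes, was in none of these classes.

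In contractile-like cells 27 members were compared, 1 of them higher and 6 lower in the sort, beside 2.94% and 4.73% of all genes. The members' median difference was -0.31 on the log2(CPM + 10) scale, against 0.06 over all genes. Adamts1 was 72.6 CPM (67.8 to 77.7) in the sort, against 272, 348 and 345 CPM in the lungs, 3.75-fold below the nearest. Adamts8 was 7.88 CPM (6.30 to 9.73), 4.76-fold below the nearest lung. Timp3 at 73.2 CPM (68.5 to 78.1) was 2.26-fold lower and Adamtsl2 at 44.2 CPM (40.5 to 48.1) was 2.51-fold lower. Adamts14 (9.62 CPM) and Adamtsl4 (4.80 CPM) were 2.43-fold and 2.69-fold below the nearest lung. Timp4 was the member higher in the sort, at 29.6 CPM (26.8 to 32.7) against 3.48, 9.89 and 9.75 CPM. Its signal was concentrated in sort cluster S9 at 151 CPM, and without S9 the class had 9.05 CPM, within the range of the lungs.

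The unnamed sort cluster S1 was closer to the lung class for some of these genes. It had 41.0 CPM of Adamts8, 96.9 CPM of Adamtsl2, 113 CPM of Timp3 and 117 CPM of Adamts5. When S1 was counted as contractile-like, a choice made after its values were seen, 1 member was higher and 4 were lower, beside 2.26% and 4.44% of all genes, and Timp3 and Adamtsl2 were no longer 2-fold beyond the nearest lung. Against S1 alone, Adamts1 and Adamts9 were lower and Adamts5 higher, beside 5.95% of all genes lower and 2.69% higher. Adamts1 was the member lower under each of these choices, with 122 CPM in S1. When all 4 samples were clustered together, Adamts1 (93.0 CPM in the sort, 263 to 328 CPM in the lungs) and Adamts8 (16.8 against 34.1 to 46.7 CPM) were still lower by 2-fold, and Adamts9 was lower as well. Timp3, Adamtsl2, Adamtsl4, Adamts14 and Timp4 were then no longer apart, with Timp4 at 26.0 CPM in the sort and 40.4 to 55.4 CPM in the lungs, while Adamts5 was higher (44.3 against 15.6 to 21.8 CPM). Those counts of 1 higher and 3 lower stand beside 0.778% and 4.31% of all genes. S4 of the sort, which shares the leading genes Ptn, Agtr2 and Prss35 with L10 of the lungs, had 212 CPM of Timp2, the highest of the sort's clusters. It held 132 CPM of Adamts2, 277 CPM of Mmp14 and 24.6 CPM of Timp4, each of them below S9 at 141, 287 and 151 CPM.

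In pericyte-like cells none of 22 members was higher and 3 were lower, beside 1.20% and 5.18% of all genes. Adamts4 was 9.80 CPM in the sort against 43.1, 33.9 and 30.2 CPM in the lungs, 3.09-fold below the nearest. Adamtsl4 (1.84 CPM) and Adamtsl5 (6.26 CPM) were 3.53-fold and 2.05-fold below. Timp3 was 266 CPM (257 to 274) against 486, 502 and 441 CPM, which is 1.66-fold below the nearest lung and does not count as apart. Without lung 3, 6 members were apart in place of 3, beside 9.57% of all genes in place of 6.39%.

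In matrix fibroblast-like cells, 202 in the sort, 1 of 23 members was higher and 3 were lower, beside 2.63% and 5.04% of all genes. Adamts5 was 17.9 CPM against 3.23, 6.34 and 4.46 CPM in the lungs, 2.82-fold above the nearest. Mmp19 at 11.6 CPM (7.28 to 17.6) was 3.20-fold lower, Timp3 at 35.9 CPM (28.3 to 44.9) 3.17-fold lower, and Adamts1 at 179 CPM (161 to 199) 2.08-fold lower. In these cells Mmp2 was 257 CPM in the sort and 246 to 287 CPM in the lungs, inside their range, and Mmp14 was 211 CPM against 97.4 to 112 CPM, 1.89-fold above the nearest.

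The class itself depended on the clustering. With all 4 samples clustered together, 12 of the 202 sort cells remained matrix fibroblast-like, fewer than the 20 cells asked of a class elsewhere, and 181 fell in a mesenchymal cluster that met no naming rule. Over those 12 cells Adamts1 was 422 CPM, inside the 399 to 478 CPM of the lungs, and Adamts5 was under the 10 CPM needed for a comparison. Timp3 (7.49 CPM) and Mmp19 (0 CPM) were still lower, Timp1 and Adam9 were lower and Adam19 and Adamts12 higher, beside 28.6% of all genes apart in either direction.

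**Figure D5:**
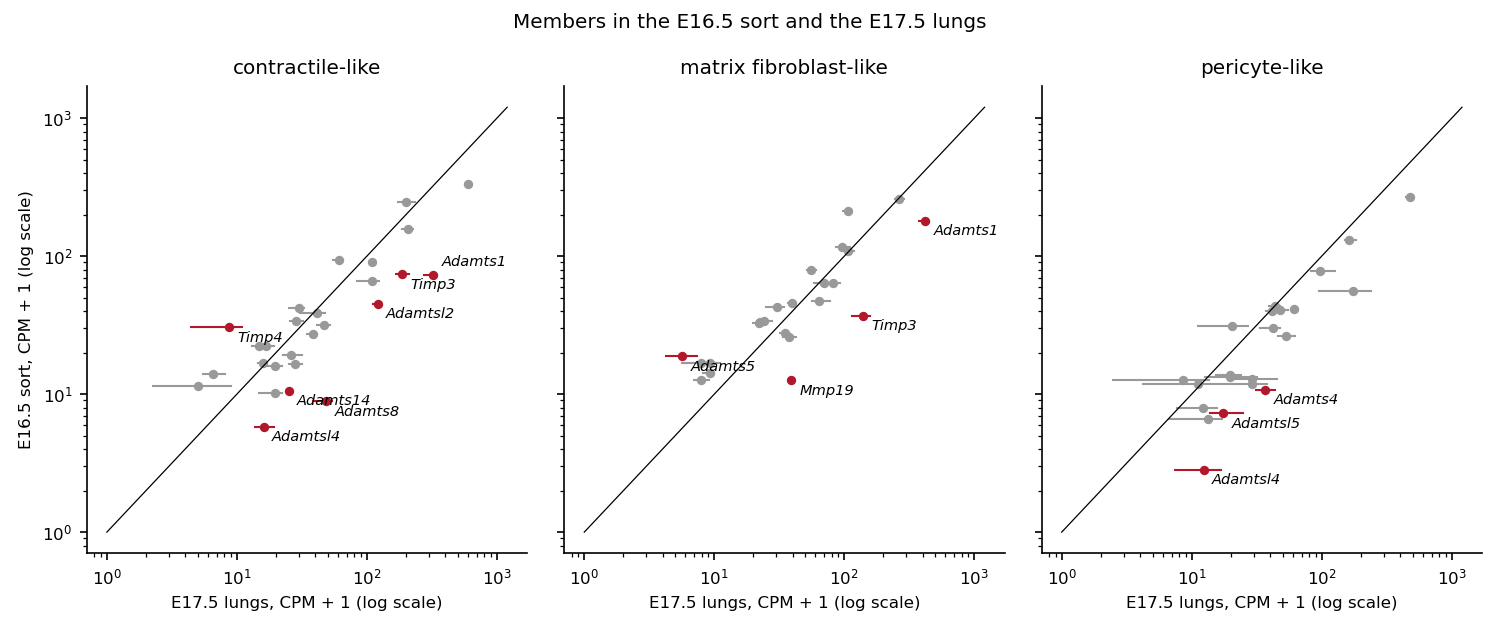
Level of each gene in the E16.5 sort (vertical) against the mean of the 3 E17.5 lungs (horizontal), both on log axes of CPM + 1, for contractile-like, matrix fibroblast-like and pericyte-like cells, with a horizontal line over the range of the lungs, a diagonal of equality, and genes at least 2-fold beyond the nearest lung in red. Adamts1 lies below the diagonal at 72.6 against 322 CPM in contractile-like cells, and Timp4 above it at 29.6 against 7.70 CPM.

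Members with central roles outside these lists were closer. Mmp2 in contractile-like cells was 333 CPM (323 to 343) in the sort against 577 to 630 CPM, 1.73-fold below the nearest lung, and Mmp14 was 245 CPM (237 to 254) against 171 to 233 CPM. Timp1, Timp2, Adam10 and Adam17 were within 1.5-fold of the nearest lung, or inside the lungs' range, in all 3 classes. Under the joint clustering Timp1 was apart in matrix fibroblast-like cells, at 10.9 CPM over the 12 sort cells against 22.0 to 27.3 CPM. Mmp9 was at 0 to 0.151 CPM in these classes of the sort. Immediate early and stress genes moved with the sort: 18 of 20 were at least 2-fold below the nearest lung in each of the 3 classes, with median log2 differences of -1.99, -2.65 and -2.43, and 2, 1 and 2 were higher. Their part in the lower Adamts1, Adamts4 and Timp3 levels of the sort was not tested.

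The annotated spans of several members overlap that of another protein-coding gene in RefSeq, and the sources used here do not say whether UMIs were counted by strand. Whether the transcripts themselves overlap was not examined. Pairs among the genes described include Timp1 with Syn1, Timp2 with Cep295nl, Timp3 with Syn3, Timp4 with Syn2, Adam17 with Iah1, Mmp19 with Tmem198b and Mmp23 with Mib2. Levels of these members are uncertain to the extent that reads were shared within these pairs.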

How the data were processed

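The deposited values are a signal per gene and cell: the authors scaled each cell's UMI counts so that every cell of a sample sums to the sample's median UMI total, as the values themselves show (100% were whole multiples of 1 UMI, tolerance 0.01). The tools named, per the submitters' processing notes, are Seurat 3.0.0 and Cell Ranger 1.3.1, with no role stated. The build of the genome was not given in the sources used here. Per the labels' protocols cells went into lysis plates, while the barcodes are those of droplet libraries. Totals per sample were 20347458 to 41038008 UMIs.

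Each cell was scaled to CPM. Doublets (126 cells) were called with Scrublet and removed, and 32 cells with over 10% mitochondrial UMIs were kept. The sort and the lungs were clustered separately on 10344 genes that held all markers and none of the members or list genes, with 2000 variable genes, 30 components, 15 neighbours and Leiden resolution 1. Clusters were named from marker lists by a scoring rule set after seeing the data. Genes were tested only among the other 10330. Mean CPM per class and lung, with at least 20 cells, went as log2(CPM + 10) into limma with trend and a lung block, after a filter of a mean of 10 CPM, with Benjamini-Hochberg adjustment over all genes tested. The residual degrees of freedom were 6, 4 and 2 for layers, mesenchyme and epithelium, and the moderated spread added 19.8, 16.4 and 11.5. Profiles of 1 lung share an animal, so the block is part of the design. Their deviations correlated at 0.200 to 0.350, 0.0931 to 0.148 and 0.159 to 0.257. The script was tested on simulated counts.

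Named are members with 100 CPM in a class, called with a difference of at least 1, apart between sort and lungs, or of central role (Timp1 to Timp4, Mmp2, Mmp9, Mmp14, Adam10, Adam17), and up to 4 genes per list. Further members, clusters S1, S4, S9 and L10 and the chromosome 9 run were chosen after their values were seen. Members and lists were chosen with earlier results of these data known. Some values of list genes and overlaps are not reported here. Sequences are RefSeq's, with 42 members matched. Tools were scanpy 1.11.5, leidenalg 0.10.2, scipy 1.17.1, numpy 2.4.6, pandas 2.3.3 and matplotlib 3.10.9 in Python 3.11.15, and R 4.3.3 with limma 3.58.1 and, for the count alternative, edgeR 4.0.16.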

Additional observations from a re-analysis of the deposited data

Results flagged for a closer look

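Adamts8 went in opposite directions in the sort and the lungs when contractile-like and matrix fibroblast-like cells of the same sample were compared. The difference, contractile-like minus matrix fibroblast-like, was -0.53 on the log2(CPM + 10) scale in the E16.5 sort and 1.70, 1.92 and 1.70 in the 3 E17.5 lungs. In the sort the levels behind it were 7.88 and 15.9 CPM, and in the lungs 47.6 ± 8.74 and 6.85 ± 2.42 CPM (SD, n = 3). The disagreement was not tested, since the sort is 1 sample, and sort cluster S1, outside both classes, held 41.0 CPM. The opposite direction did not hold under other class limits. With S1 counted as contractile-like, chosen after seeing the data, the sort's levels were 16.4 and 15.9 CPM and its difference 0.03. With all 4 samples clustered together it was 0.36, over 12 matrix fibroblast-like cells of the sort, against 1.57, 1.73 and 1.54 in the lungs.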

How the results depend on the processing

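The 143 gene results called in the main fit were followed under 1714 alternatives (edgeR, pseudocount, filter, scaling, no block, each lung left out, doublets or cells rich in mitochondrial UMIs handled otherwise, coarser clusters). Of these, 1683 kept direction and call, 28 lost the call and 3 reversed. Results not called in the main fit were left out of this count. The reversed ones were Adamts9 in epithelium with edgeR (0.22) and Adamts8 in matrix fibroblast-like cells with edgeR (1.75) and a pseudocount of 1 CPM (0.13). The cause was not tested. Members called grew with more genes admitted. With a filter of 2 CPM (35 members tested) they were 31 in epithelium, 32 in endothelium, 34 in mesenchyme and 32 in immune cells, beside 71.6%, 75.9%, 73.4% and 84.2% of all genes. With no filter (67 tested) they were 45, 43, 48 and 47, beside 50.5%, 51.9%, 51.6% and 59.8%, and 25 of 62 in pericyte-like cells, beside 20.5%, against 18, 20, 21, 20 and 16. Without the replicate block only Adam15 between alveolar classes lost its call (0.41, adjusted p = 0.0857).

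Members apart between sort and lungs numbered 7, 3 and 4 in contractile-like, pericyte-like and matrix fibroblast-like cells, beside 7.67%, 6.39% and 7.66% of all genes. A 1.5-fold limit gave 11, 8 and 7, beside 17.2%, 15% and 20.5% of all genes. A 3-fold limit gave 2 in each, beside 3.91%, 2.87% and 3.33%, and a mean of 50 CPM gave 3, 0 and 2, beside 8.40%, 6.74% and 7.45%. Clustering all 4 samples together gave 4, 4 and 6, beside 5.09%, 6.15% and 28.6%, with 5 of the 7 genes in contractile-like cells and 2 of the 4 in matrix fibroblast-like cells no longer apart. S1 alone, added after seeing the data, gave 3, beside 8.64%. Leaving out a lung gave 7 to 10, 2 to 6 and 4 to 5. The shares of all genes then were 9.26% to 9.60%, 8.72% to 9.57% and 9.04% to 9.13%. Thinning to 1000 UMIs moved the shares of cells to 51.8% (Timp3), 43.2% (Mmp2), 32.9% (Adamts1), 14.5% (Adam15) and 37.7% (Mmp8, from 43.7% of granulocyte or mast cell-like cells, with 0.796% before thinning in endothelium). All 12 levels checked stayed within 1 SD under 72 alternatives. Leaving out 1 of 3 lungs cannot move a mean by 1 SD, so those alternatives could not fail this check. Clustering all 4 samples together was not among the 72. There Mmp2 in contractile-like cells was 539, 491 and 506 CPM in the lungs, against 602 ± 26.9 CPM in the main classes. Classes of 20 to 43 cells per lung limit the values for granulocyte, MHC class II-bearing and airway cells.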
